A study of Mus musculus with 3 samples.

Results

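The glial cell line-derived neurotrophic factor (GDNF) family and its receptors were followed across 3 treatments of a mouse brain culture. The family was taken as the 10 genes Gdnf, Nrtn, Artn, Pspn, Ret, Gfra1, Gfra2, Gfra3, Gfra4 and Gfral, chosen by name, out of 22328 genes represented on the array. They were measured by 13 probes whose gene name in the scanner files was one of these symbols, 4 of them for Gfra4 and 1 for each other gene. Cells came from the cerebrum of C57BL6/J embryos at embryonic day 18 and were grown in neurobasal medium with B27, and drugs were added on day 10 in vitro and left for 24 h. One culture received 1 mM valproate, another 100 µM lamotrigine and the last the solvent DMSO alone, and all 3 held 0.1% DMSO. Valproate is an antiepileptic drug that inhibits class I histone deacetylases, and lamotrigine is another, which acts on voltage-gated sodium channels. The culture is a mixture of neurons and other brain cells, and the labels give no sorting step.

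GDNF family ligands are secreted dimers. Each binds a preferred co-receptor of the GFRα family, which is held on the cell surface by a lipid anchor, and the pair then engages the receptor tyrosine kinase Ret. In the nervous system this signalling is known for keeping midbrain dopaminergic, motor, sensory, enteric and parasympathetic neurons alive, and GDNF also signals through the adhesion molecule NCAM without Ret. GFRAL is the receptor of GDF15 and is known from the hindbrain.

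There was 1 array per treatment, so no difference could be set against a spread between cultures and no test was run. The precision is limited by that number. The valproate array was the brightest before scaling, with a 75th percentile signal of 478, against 388 with lamotrigine and 372 with DMSO. It also had the most genes detected, 15095 of the 22328, against 14821 with lamotrigine and 14506 with DMSO. Each array had 0 saturated spots. Values are scaled signals, in which 100 is the 75th percentile of spot intensity on that array, and they set 1 probe against itself on another array, never 1 probe against another. The only error available is the technical SD between repeated spots of the same probe on an array, which leaves out culture, RNA extraction and labelling. Marker genes were looked up on each array, and their detection does not by itself show that a cell type was present. All 10 pan-neuronal and all 10 astrocyte markers were detected on every array, and so were 5 of the 8 microglia markers, with Itgam at 1438 with valproate, 1398 with lamotrigine and 1264 with DMSO, whereas Cx3cr1, P2ry12 and C1qa were not well above background on any.

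The stretches of sequence below show what the arrays read for the 5 family members that stood farthest from DMSO with valproate. They are in mRNA sense, 5′ to 3′, from the scanner files, with mm9 positions. A part of 30 of the 60 bases is shown for each, except for the leading Gfra4 probe, which is shown whole. Capitals mark the polyadenylation signal AATAAA where the part holds it, and CG dinucleotides in the whole probe.
Ret, bases 31 to 60, chr6:118101791-118101820, minus strand: aggtgactaaggaaataatttcagttgtgt
Nrtn, bases 31 to 60, chr17:56890748-56890777, minus strand: actgacttcacataaagtgtgggaactccc
Gdnf, bases 31 to 60, chr15:7787504-7787533, plus strand: caaagttctctacaaactttatttttgtac
Gfra2, bases 13 to 42, chr14:71379598-71379627, plus strand: taaccaagctccAATAAAcgtactaggaag
Gfra4, probe A_55_P2039196, chr2:130867132-130867191, minus strand: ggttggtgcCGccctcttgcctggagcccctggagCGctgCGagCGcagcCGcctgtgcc
Gfra4, probe A_55_P2039190, bases 31 to 60, chr2:130865376-130865405, minus strand: ctgcagtggctcAATAAAcccatgtgcact
Gfra4, probe A_55_P1984118, bases 31 to 60, chr2:130865957-130865986, minus strand: gctgtatgcactcactgccctggctctcca
Gfra4, probe A_55_P1984119, bases 31 to 60, chr2:130866140-130866169, minus strand: tgcaggaccagactgctgggtgctgtttcc
The Ret and Gdnf probes had a GC content of 35%, and the leading Gfra4 probe had 75% with 5 CG dinucleotides. The files gave these probes no exon or UTR annotation.

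Of the 10 genes, 7 were detected on all 3 arrays, namely Gdnf, Nrtn, Artn, Ret, Gfra1, Gfra2 and Gfra4. Pspn, Gfra3 and Gfral were not well above background on any array. Pspn encodes persephin, the ligand of GFRα4, and its scaled signals were 0.866 with valproate, 1.07 with lamotrigine and 1.18 with DMSO. Gfra3 encodes the co-receptor of artemin, and its signals were 3.35, 3.68 and 1.94 in the same order. Gfral was at 0.939 with valproate, 1.15 with lamotrigine and 1.30 with DMSO. These values lie under the detection floors of 3.88 for valproate, 4.63 for lamotrigine and 5.29 for DMSO, which are the lowest scaled signals of any detected probe on each array. No fold is given for these 3 genes.

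**Figure D1:**
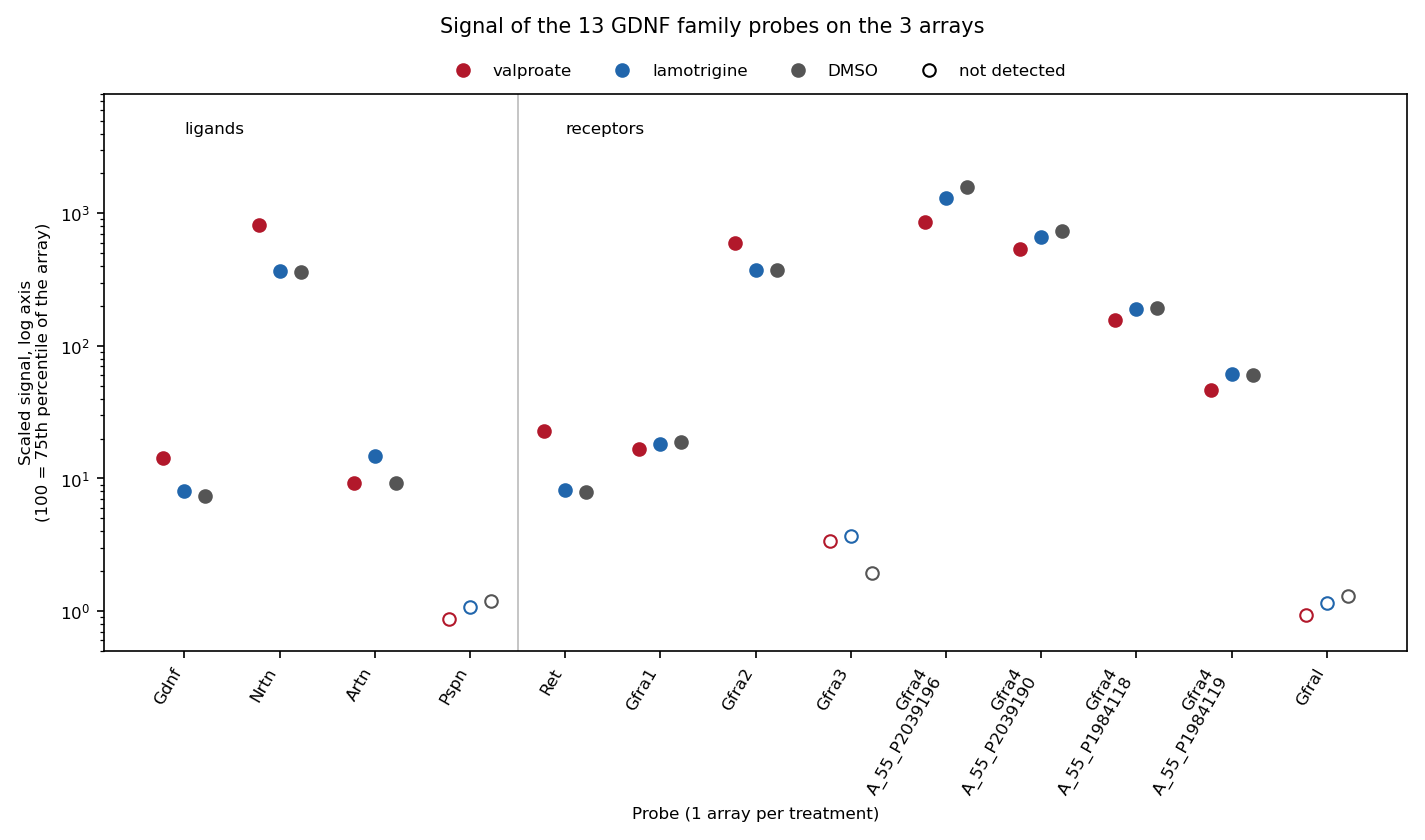
Scaled signal on a log axis for each of the 13 family probes on the valproate, lamotrigine and DMSO arrays, 1 point per array, with open points where the probe was not well above background. The valproate points of Ret, Nrtn, Gdnf and Gfra2 lie above the other 2 arrays, and those of the 4 Gfra4 probes lie below, although 1 of these (A_55_P1984118) is at 0.05 log2 above DMSO with spike-in scaling.

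Valproate was set against DMSO to ask which genes differ after inhibition of class I histone deacetylases, the purpose that the study's title gives. Of the 7 detected members, 2 (Ret and Nrtn) were at least 2-fold higher with valproate, 0 were at least 2-fold lower and 5 lay between. Among all 15255 genes detected on at least 1 of these arrays, the share past 2-fold was 2.68% upward and 1.67% downward. The median log2 difference of the 7 members was 0.69, against -0.07 over all those genes. In this bulk RNA, fewer cells of a type and less RNA per cell cannot be told apart.

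Among the ligands, neurturin (Nrtn), which binds GFRα2 by preference, had a scaled signal of 811 with valproate, 368 with lamotrigine and 364 with DMSO. Valproate stood alone as the high array, and the lamotrigine and DMSO arrays lay within 0.01 log2 of each other. The log2 difference of valproate minus DMSO was 1.15, with a technical SD of 0.08, or 2.23-fold. Of the 3610 genes within 2-fold of its mean signal, 0.609% were as far above DMSO. Its technical SD is the smaller of those of the 2 members past 2-fold.

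Gdnf, the founding member, which binds GFRα1, had a scaled signal of 14.2 with valproate, 7.98 with lamotrigine and 7.31 with DMSO. The valproate array was again the high one. The log2 difference to DMSO was 0.95 with a technical SD of 0.27, or 1.94-fold, just under the 2-fold line. The signal was low, and of the 1798 genes within 2-fold of it, 5.67% were as far above DMSO. With normexp background correction the difference was 0.20.

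Artemin (Artn), the ligand of GFRα3, had a scaled signal of 9.25 with valproate, 14.9 with lamotrigine and 9.17 with DMSO. Here the lamotrigine array was the high one, and the valproate and DMSO arrays differed by 0.01 log2, with a technical SD of 0.35.

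Ret, the kinase shared by the 4 ligands, had the highest difference of the family. Its scaled signal was 23.0 with valproate, 8.14 with lamotrigine and 7.95 with DMSO. The valproate array was high, and the other 2 arrays were 0.03 log2 apart. The log2 difference to DMSO was 1.53 with a technical SD of 0.27, or 2.89-fold, and 0.944% of all genes measured were as high or higher. Among the 2201 genes within 2-fold of its mean signal, 1.82% were as far above DMSO and 5.41% were at least 2-fold higher. The DMSO signal lay close to the detection floor, and with normexp background correction, which adds 50 to every spot, the difference was 0.39.

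The co-receptors did not move together. Gfra2, the partner of neurturin, had a scaled signal of 602 with valproate, 371 with lamotrigine and 374 with DMSO. Its log2 difference to DMSO was 0.69 with a technical SD of 0.08, or 1.61-fold, and 2.07% of the 3672 genes of like signal were as far above DMSO. Nrtn and Gfra2, ligand and co-receptor, were thus both above the lamotrigine and DMSO arrays with valproate. Gfra1, the partner of GDNF, had 16.8 with valproate, 18.3 with lamotrigine and 19.0 with DMSO. Its log2 difference of -0.17 was within its technical SD of 0.22 and lies above 0 with spike-in scaling (0.18).

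Gfra4, the partner of persephin, lay below DMSO with valproate on all 4 of its probes, except that 1 of them lay above it with spike-in scaling. Probe A_55_P2039196, which has the highest signal and stands for the gene here, had a scaled signal of 855 with valproate, 1298 with lamotrigine and 1572 with DMSO. Its log2 difference of valproate minus DMSO was -0.88 with a technical SD of 0.07, and 0.616% of the 2759 genes of like signal were as far below DMSO. The lamotrigine array lay between the other 2. Probe A_55_P2039190, whose sequence holds AATAAA, had 542, 660 and 741 in that order of arrays, a difference of -0.45. Its annotation names a transcript record of another database than that of the other Gfra4 probes. Whether the 2 records are the same transcript was not determined. Probe A_55_P1984118 had 158 with valproate, 191 with lamotrigine and 195 with DMSO (-0.30). Probe A_55_P1984119 had 46.6, 61.4 and 60.2 (-0.37). On these 3 probes the technical SD ranged from 0.07 to 0.12, so all 4 probes lay below DMSO by more than that error, and the leading probe by more than the other 3. With spike-in scaling the leading probe was at -0.53 and A_55_P2039190 at -0.10, while A_55_P1984119 was at -0.02 and A_55_P1984118 at 0.05. Gfra4 RNA is known to be spliced in several forms in the mouse, and which forms each probe reads was not tested.

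**Figure D2:**
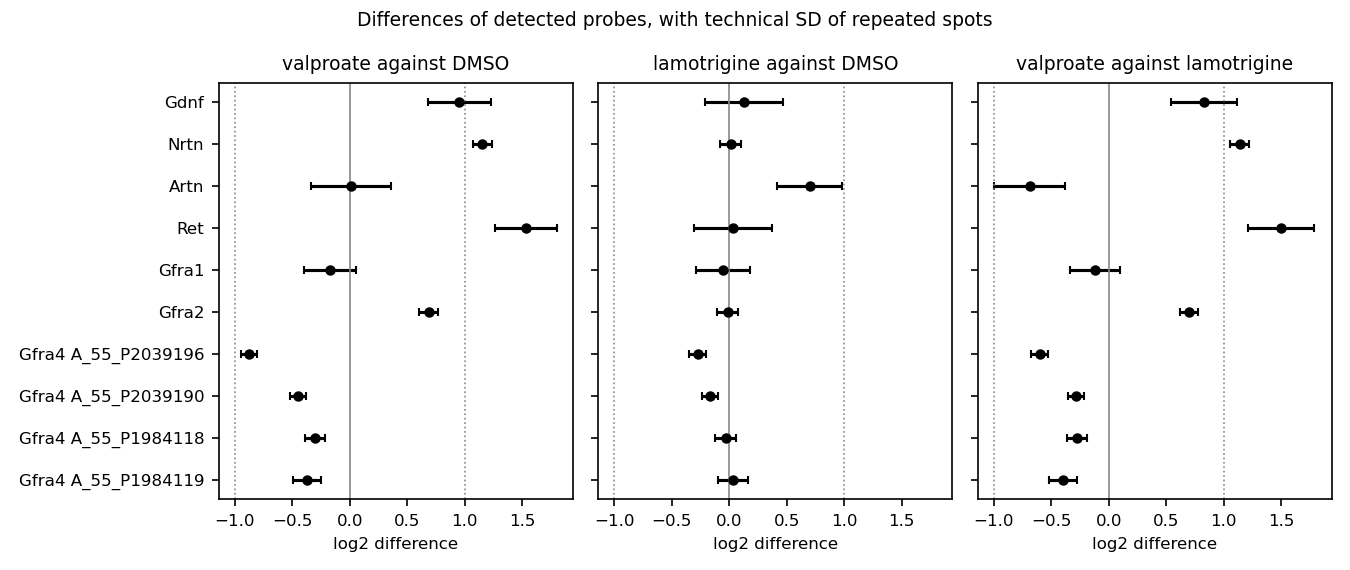
Log2 difference of each detected family probe in the 3 comparisons, with the technical SD of repeated spots as error bars and dotted lines at 2-fold. Ret (1.53) and Nrtn (1.15) lie past 2-fold for valproate against DMSO, and no member lies past it for lamotrigine against DMSO.

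**Figure D3:**
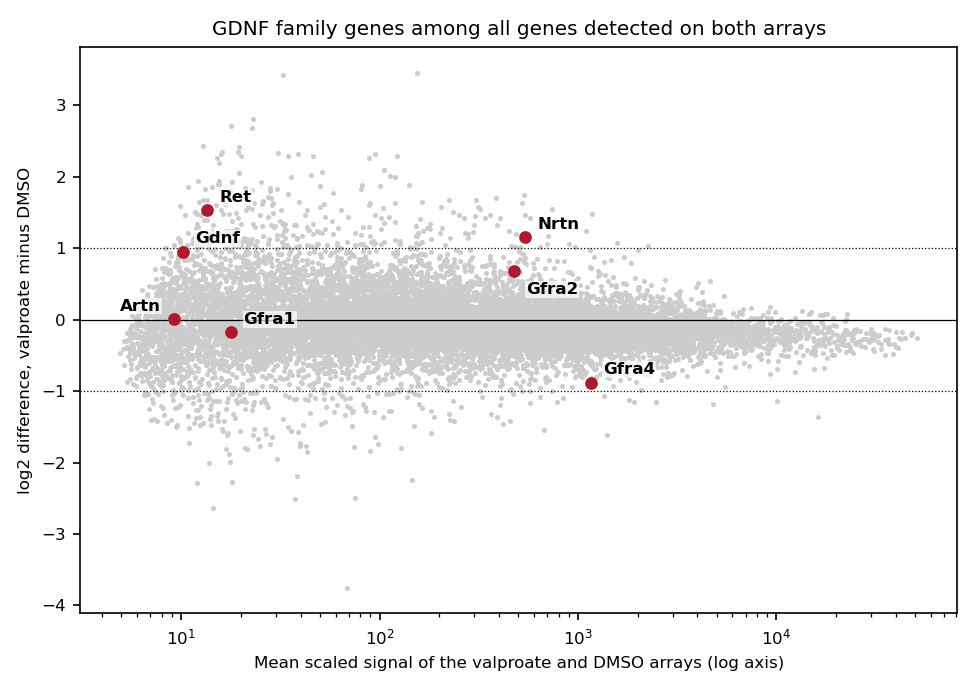
Log2 difference of valproate minus DMSO against mean scaled signal for every gene detected on both arrays (grey), with the 7 detected family genes in red and dotted lines at 2-fold. The grey cloud is wider at the low signals of Ret and Gdnf than at those of Nrtn, Gfra2 and Gfra4.

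Lamotrigine was set against DMSO as the other drug on the slide. Of the 7 detected members, 0 lay past 2-fold in either direction, against 0.267% upward and 0.14% downward of all 14987 genes measured. Artn was the farthest above DMSO, with a log2 difference of 0.70 and a technical SD of 0.28, or 1.62-fold. Of the 2051 genes of like signal, 2.97% were as far above DMSO, and with normexp background correction the difference was 0.16. Gfra4 was the farthest below, with a log2 difference of -0.28 on its leading probe (technical SD 0.07), -0.17 on A_55_P2039190, -0.03 on A_55_P1984118 and 0.03 on A_55_P1984119, so its probes did not share a direction here, and with spike-in scaling the leading probe was at -0.07. Gdnf (0.13), Ret (0.03), Nrtn (0.01), Gfra2 (-0.01) and Gfra1 (-0.05) were all within their technical SDs.

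Both comparisons with DMSO use the same DMSO array, so the 2 drugs were also set against each other. With valproate minus lamotrigine, Ret was at 1.5, Nrtn at 1.14, Gdnf at 0.83 and Gfra2 at 0.70. Artn was at -0.69 and the leading Gfra4 probe at -0.60, with Gfra1 at -0.12. Of the 7 members, 2 lay past 2-fold on the higher side and 0 on the lower side, against 2.65% and 2.18% of 15372 genes. The valproate values of Ret, Nrtn, Gdnf and Gfra2 were therefore high against either of the other arrays, while the Artn difference came from the lamotrigine array. With normexp background correction, valproate minus lamotrigine was 0.48 for Ret, 0.28 for Gdnf and -0.37 for Artn, and 1.13 for Nrtn and 0.71 for Gfra2.

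**Figure D4:**
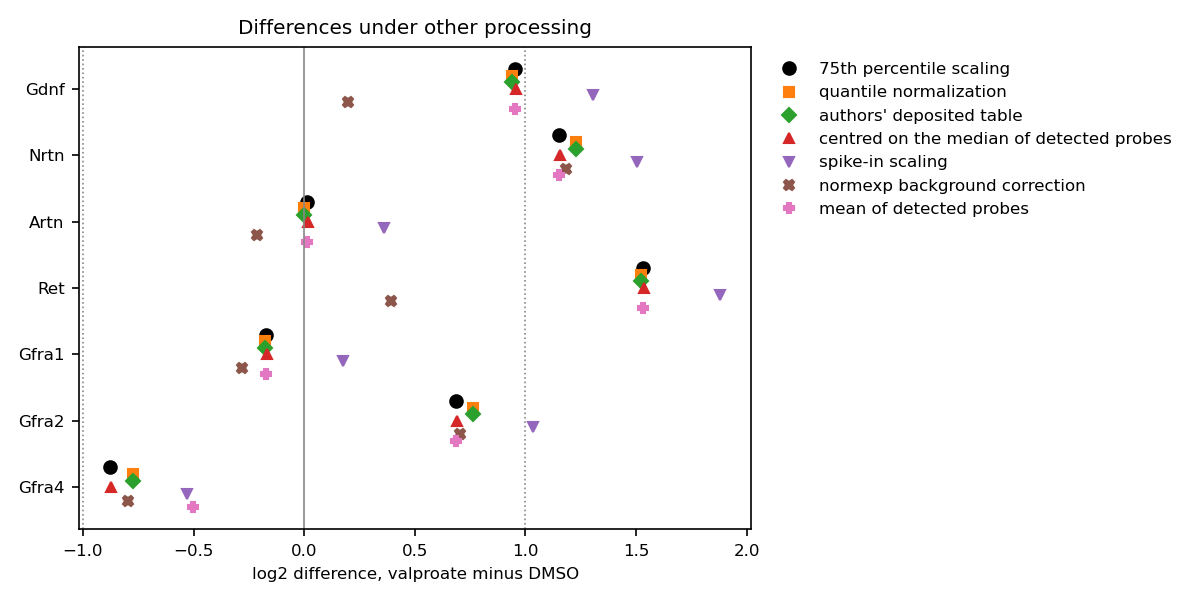
Log2 difference of valproate minus DMSO of the 7 detected family genes under the reported scaling and 6 alternatives. Ret ran from 0.39 to 1.88, Gdnf from 0.20 to 1.30, Nrtn from 1.15 to 1.5, Gfra2 from 0.69 to 1.04 and Gfra4 from -0.88 to -0.50.

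Genes whose pattern was most like that of Ret were sought by the distance over the 2 log2 differences to DMSO, among named genes detected on all 3 arrays. The nearest 5 were Fam131c (distance 0.006), Pabpc1l (0.007), Tpd52l1 (0.05), Map7d3 (0.06) and Crhr2 (0.06), a receptor for peptides of the corticotropin-releasing hormone family. Crhr2 had a scaled signal of 73.0 with valproate, 26.9 with lamotrigine and 25.2 with DMSO. The likeness rests on 3 arrays and is a description.

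The promoters of the 2 ligands that stood above DMSO with valproate are shown because they differ in base composition. Each is the 250 bases before a RefSeq transcription start on GRCm38.p6, read in the direction of the gene. Capitals mark the GC box (GGGCGG or its reverse complement CCGCCC) and the TATA box (TATAAA, searched on the gene's strand), which do not overlap.
Nrtn, chr17:56757549-56757798, minus strand: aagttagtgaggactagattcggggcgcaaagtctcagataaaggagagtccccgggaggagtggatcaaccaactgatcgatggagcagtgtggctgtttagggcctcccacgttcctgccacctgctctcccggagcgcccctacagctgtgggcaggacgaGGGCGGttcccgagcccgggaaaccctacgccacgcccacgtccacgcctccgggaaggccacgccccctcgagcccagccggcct
Gdnf, first start, chr15:7809798-7810047, plus strand: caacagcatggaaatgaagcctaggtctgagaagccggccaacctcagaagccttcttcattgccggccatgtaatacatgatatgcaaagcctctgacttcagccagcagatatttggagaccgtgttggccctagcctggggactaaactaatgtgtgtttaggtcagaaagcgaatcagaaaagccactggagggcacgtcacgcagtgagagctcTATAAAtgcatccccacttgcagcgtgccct
Gdnf, second start, chr15:7813477-7813726, plus strand: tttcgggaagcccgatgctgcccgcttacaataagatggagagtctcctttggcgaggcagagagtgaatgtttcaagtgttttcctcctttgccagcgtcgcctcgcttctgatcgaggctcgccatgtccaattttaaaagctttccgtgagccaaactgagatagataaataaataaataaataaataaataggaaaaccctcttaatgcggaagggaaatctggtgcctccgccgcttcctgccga
The Nrtn stretch held 19 CG dinucleotides and 1 GC box, and a GC box was found in 32.7% of 32851 promoter stretches of this length. The first Gdnf stretch held 7 CG dinucleotides and 1 TATA box, which 7.59% of the stretches had, and the second held 14 CG dinucleotides and neither motif. The median over all stretches was 6 CG dinucleotides. A match is a description of the letters and not of a bound site.

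Genes of the pathway around the family were counted against the same background, in which 2.68% of all genes were past 2-fold upward with valproate and 1.67% downward. Of 6 binding partners (Ncam1, Sdc3, Gas1, Lrig1, Sorl1 and the GFRAL ligand Gdf15), 0 were at least 2-fold apart, and the farthest were Gdf15 at a log2 difference of 0.17 and Gas1, a surface protein related to the GFRα family, at -0.17, or 0.18 with scaling on spike-in RNA. Ncam1, the alternative receptor for GDNF, had a scaled signal of 6100 with valproate, 6967 with lamotrigine and 6820 with DMSO. Of 24 measured adaptors and docking proteins of Ret, 1 was past 2-fold, on the lower side. That gene was the kinase Src, with a scaled signal of 4.87 with valproate, 7.67 with lamotrigine and 10.5 with DMSO (-1.11), all near the detection floor, and it was -0.62 with normexp correction and -0.76 with spike-in scaling. Dok2, a docking protein, was at -0.97.

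Genes induced by ERK signalling, which Ret feeds, and its feedback inhibitors had 0 of 14 measured members at least 2-fold apart with valproate. The immediate early gene Egr1 was the farthest above DMSO at 0.69, or 1.04 and so past 2-fold with spike-in scaling, and Fos the farthest below at -0.46. With lamotrigine, 9 of 12 measured members lay below DMSO with a median of -0.20, against -0.04 over all genes, and 0 were at least 2-fold lower; with spike-in scaling 6 of the 12 lay below and the median was 0.00. In the reported scaling the ERK phosphatase gene Dusp4 was at -0.73 and the ETS factor genes Etv4 and Etv5, known targets of Ret in kidney, at -0.61 and -0.60. Their differences for valproate minus DMSO were 0.00, -0.33 and -0.36, and that of Etv4 lies above 0 with spike-in scaling (0.02). These 3 genes were chosen after their values were seen.

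Of 14 transcription factors described as acting on Ret in other tissues, 9 were measured with valproate against DMSO, and 1 of them was past 2-fold, on the higher side. Phox2a, a homeobox factor of noradrenergic and autonomic neurons, had a scaled signal of 18.3 with valproate, against 0.969 on the lamotrigine array and 1.1 on the DMSO array, where it was not well above background. It was at least 3.46-fold higher with valproate than the DMSO detection floor, and at least 3.96-fold higher than the lamotrigine one. With normexp correction these bounds were 0.74 and 0.89 log2, so neither was past 2-fold. Pax3 was the farthest below, at least 1.81-fold lower. Pax2, Esr1, Isl1 and Runx1 were among those not well above background on these arrays. The medians of the 4 pathway lists for valproate minus DMSO ran from -0.14 to -0.05 and all turn positive with spike-in scaling, from 0.20 to 0.25.

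**Figure D5:**
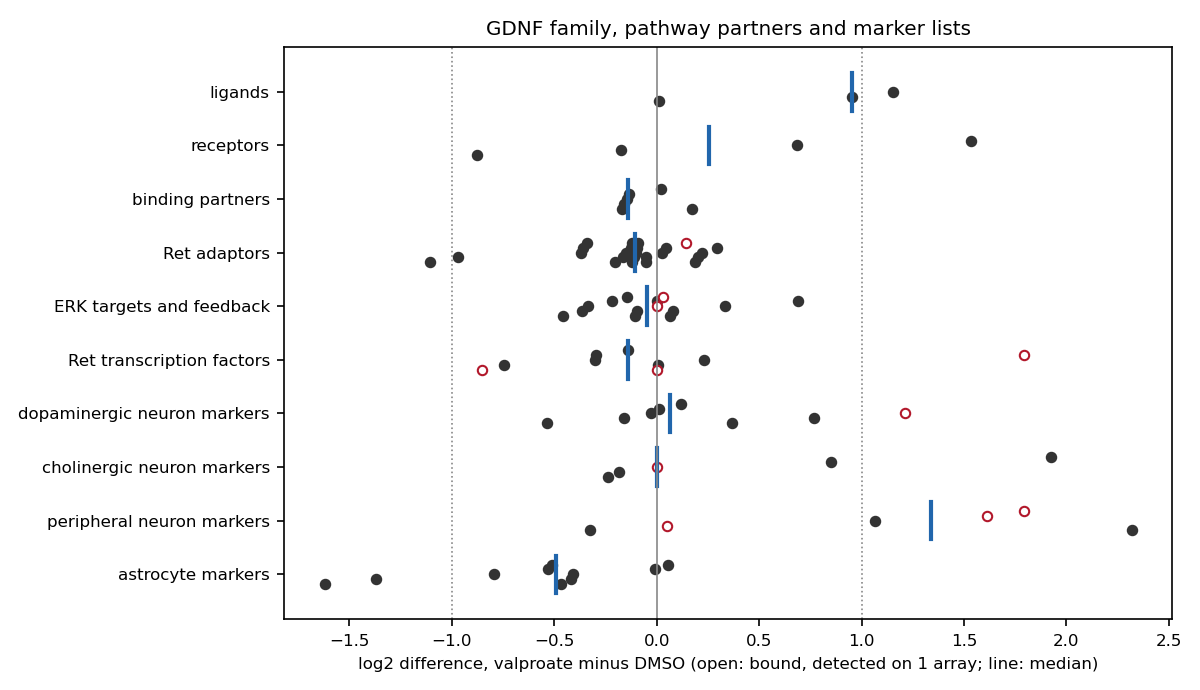
Log2 difference of valproate minus DMSO for each measured gene of the family, of 4 pathway lists and of 4 lists of cell type markers, with open points for bounds, a line at each list's median and dotted lines at 2-fold. The pathway lists centre near 0, while 4 of the 6 measured peripheral neuron markers lie past 2-fold.

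Markers of the neurons and glia in which the family is known moved with some of these values, and their part in the differences was not tested. Of 9 peripheral neuron markers, 6 were detected with valproate, 3 with lamotrigine and 3 with DMSO, with summed scaled signals of 225, 98.3 and 95.1. With normexp correction 0 of the measured markers were at least 2-fold higher, and the median log2 difference was 0.52 in place of 1.34. Pou4f1, a factor of sensory neurons, had 35.4 with valproate, 8.34 with lamotrigine and 7.11 with DMSO, and the filament gene Prph had 136, 63.7 and 65.1. Isl2 was at least 3.06-fold higher with valproate than the DMSO floor, or a bound of 0.31 log2 with normexp correction. Trpv1 and Scn10a, which mark pain-sensing neurons, were not well above background on any array.

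The 6 cholinergic markers had summed signals of 162 with valproate, 81.8 with lamotrigine and 87.6 with DMSO. The largest part of each sum was Ache, with 109, 55.3 and 60.5 in that order. Of the 5 markers measured with valproate against DMSO, 2 lay above DMSO and 2 below. Slc18a3, the vesicular acetylcholine transporter, was 1.93 log2 above DMSO, or 0.72 with normexp correction. Chat, the enzyme that makes acetylcholine, had 5.24 with valproate, was not well above background with lamotrigine, and had 6.17 with DMSO. The 10 dopaminergic markers summed to 439 with valproate, 399 with lamotrigine and 383 with DMSO. Th, the first enzyme of dopamine synthesis, was at -0.53, the dopamine transporter Slc6a3 at 0.77 and Pitx3 at least 2.31-fold higher, and En1 was not well above background on any array. Slc6a3 was past 2-fold with spike-in scaling (1.12), and Pitx3 was not with normexp correction (a bound of 0.18 log2). Astrocytes are a known source of GDNF, and their 10 markers summed to 22230 with valproate, 41759 with lamotrigine and 42465 with DMSO, with 9 of the 10 below DMSO and a median log2 difference of -0.49. With spike-in scaling 8 of the 10 lay below and the median was -0.14. The sums add different probes and are weighted to the brightest. Aldoc was the largest part of each, with 10073 with valproate, 25605 with lamotrigine and 25995 with DMSO. Gfap was at 0.06 and Fgfr3 at -0.01 for valproate minus DMSO.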

How the data were processed

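Total RNA of 3 cultures was labelled with Cy3 and hybridised to 1 Agilent array each, all on 1 slide, per the labels and file headers. The deposited scanner files hold intensity values made by Feature Extraction, which, per the file headers, subtracts background and detrends each array, with no scaling between arrays. The authors also deposited a table of normalized intensity, quantile-normalized by its own name; its presence calls were not used.

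Signals were divided by the 75th percentile of the 59305 spots that are not controls, outlier spots were left out and log2 values of repeated spots were averaged. A probe was detected if most of its spots were well above background. Of 55681 probes, 27235 were joined to RefSeq genes by accession, 3581 by symbol and 565 by older symbol; 24300 stayed without a gene. All 13 family probes are single spots and were joined to the gene of their own name. A gene is represented by its probe of highest mean signal. A difference needed detection on both arrays; with detection on 1, the other was set to its detection floor or its own signal if higher, and the value is a bound. Technical SD is the root mean square over detected probes, of 399 printed 10 times, in 5 ranges of signal. The 2-fold rule was also run on simulated data, in which every planted difference was larger than 2-fold. The simulated noise was smaller than the technical SD of dim probes, so it does not show how the rule behaves near 2-fold or at low signal.

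The comparisons were valproate against DMSO, lamotrigine against DMSO and valproate against lamotrigine, with no test. Named genes were all members and, in each pathway list, those at least 2-fold apart and the 2 farthest from 0 with valproate; marker genes, Ncam1, Dusp4, Etv4 and Etv5 were chosen after their values were seen. The members and lists were chosen with earlier results of these data known. Alternatives were quantile normalization, centring on detected probes, spike-in scaling on 6 of 10 control probes, normexp with an offset of 50, the deposited table, other detection and probe rules, outlier spots kept, and 1.5-fold and 3-fold thresholds. Promoters came from RefSeq on GRCm38.p6, where 7 of the 10 genes had an entry. Python 3.11.15, R 4.3.3 and limma 3.58.1 were used.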

Additional observations from a re-analysis of the deposited data

How the results depend on the processing

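The count of members at least 2-fold higher with valproate than with DMSO, 2 as reported, was 1 with normexp background correction (Nrtn), 4 with spike-in scaling (Ret, Nrtn, Gdnf and Gfra2) and 4 and 0 with thresholds of 1.5-fold and 3-fold. The count lower was 1 at 1.5-fold. For lamotrigine against DMSO the count higher was 1 at 1.5-fold. For valproate against lamotrigine the count higher was 1 with normexp correction and 4 and 0 with the 1.5-fold and 3-fold thresholds, and the count lower was 2 at 1.5-fold. The other alternatives left these counts as reported.

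Over single genes, 146 of 175 recomputed differences moved by less than 1 technical SD, and 29 by more. Many of the 146 could not move. Keeping outlier spots or dropping the detection filter left every detected member unchanged, as did averaging probes for genes with 1 probe. Quantile normalization and the deposited table gave nearly the same values. The 175 also include the lamotrigine array used as the control, which is not a change of processing. Spike-in scaling adds 0.35 log2 to valproate minus DMSO and 0.20 to lamotrigine minus DMSO; over all genes it put the median of valproate minus DMSO at 0.27. The all-gene counts for valproate against DMSO, 409 higher and 254 lower as reported, were 940 and 103 with spike-in scaling and 120 and 84 with normexp correction. For lamotrigine against DMSO, 40 and 21 as reported, they were 106 and 11 with spike-in scaling, 0 and 5 with normexp correction, 29 and 33 with quantile normalization and 29 and 34 in the authors' deposited table. For valproate against lamotrigine, 407 and 335 as reported, they were 135 and 100 with normexp correction and 580 and 229 with spike-in scaling. Normexp correction with its added offset shrinks differences of dim probes by construction, and Ret, Gdnf and Artn are dim on all arrays. Without replicate cultures, the spread between cultures is unknown. No paired analysis was possible because each treatment had 1 array.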
